A study of Mus musculus with 6 samples.

Results

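The gap junction connexins of the mouse uterus were examined in *Foxo1f/f* control mice and in *PgrCre/+ Foxo1f/f* mice, called *Foxo1d/d*. They are 8 of the 23420 genes counted, taken by gene symbol because these connexins are known from uterine epithelium, stroma, smooth muscle or vessels: *Gja1*, *Gja4*, *Gja5*, *Gjb1*, *Gjb2*, *Gjb5*, *Gjb6* and *Gjc1*. RNA-seq was performed on uteri of C57BL/6J females, 8 weeks of age, at pseudopregnancy day (PPD) 4.5 after mating with vasectomized males. Each genotype had 3 libraries, and each library held pooled RNA of 2 females. The comparison asks which transcripts depend on FOXO1 in the uterus at the time when an embryo would implant. Both genotypes carried the floxed alleles, and the controls lacked Cre. Cre was expressed from the *Pgr* locus, so that recombination followed progesterone receptor expression in several uterine compartments and also in the pituitary, preovulatory granulosa cells and mammary gland. FOXO1 staining persisted in uterine blood vessels of *Foxo1d/d* mice, and the floxed allele removes a single coding exon, so reads from the remaining exons of *Foxo1* can still be counted.

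Connexins assemble into hexameric hemichannels, and a pair of these in facing membranes docks to form a gap junction channel through which ions and small metabolites pass between neighbouring cells. The alpha, beta and gamma subfamilies differ in sequence and in the tissues that use them, and beta connexins are typical of epithelia. In the rodent uterus, epithelial gap junctions are known to be under ovarian steroid control around implantation, GJA1 channels couple stromal cells as they decidualize, and GJA1 channels in the myometrium increase before labor.

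The values analysed were the mean raw counts of each genotype over its 3 libraries. The counts summed to 78375043 over the *Foxo1f/f* libraries and to 81773890 over the *Foxo1d/d* libraries, an average of 26125014 and 27257963 per library. Since means over libraries were analysed, no SD and no test between the genotypes is given, and the 95% intervals given for ratios (Wilson method, from the summed counts) and levels (exact Poisson) cover counting error only, not differences between libraries or mice. Levels are given in CPM (counts per 1000000 counts of the genotype), divided by transcript length in kilobases where genes are compared. Ratios are *Foxo1d/d* over *Foxo1f/f* after division by the total count, given as log2 values with a pseudocount of 1 added to each mean count. Fold differences and intervals were taken without the pseudocount. A gene was called higher or lower when its log2 ratio lay past 1.5-fold and its counts averaged at least 10 over both genotypes. *Foxo1* itself (chr3:52268337-52350109; all positions are on GRCm38.p6) averaged 3941 counts per control library and 1456 per *Foxo1d/d* library. Its transcript was thus 2.82-fold lower (log2 ratio −1.50, interval −1.55 to −1.45) in the group labelled as deleted.

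Of the 8 connexins, 3 were lower in *Foxo1d/d* uteri, 0 were higher and 5 lay within 1.5-fold. All 3 were beta connexins, *Gjb2*, *Gjb6* and *Gjb1*, out of 4 beta members. Among the 15696 genes that reached this minimum, 3.51% were lower and 5.43% were higher by the same rule. Differences of this size were more frequent among rarer transcripts, and 9.98% of the 2746 genes averaging from 10 to under 100 counts were lower, the range that holds *Gjb1* and *Gjb6*. All 3 genes also lay past 2-fold, as did 1.40% of the 15696 genes in that direction. The median log2 ratio was 0.03 over the 8 connexins and 0.02 over the 15696 genes. In bulk uterine RNA, fewer cells of a type and less RNA per cell cannot be told apart.

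**Figure D1:**
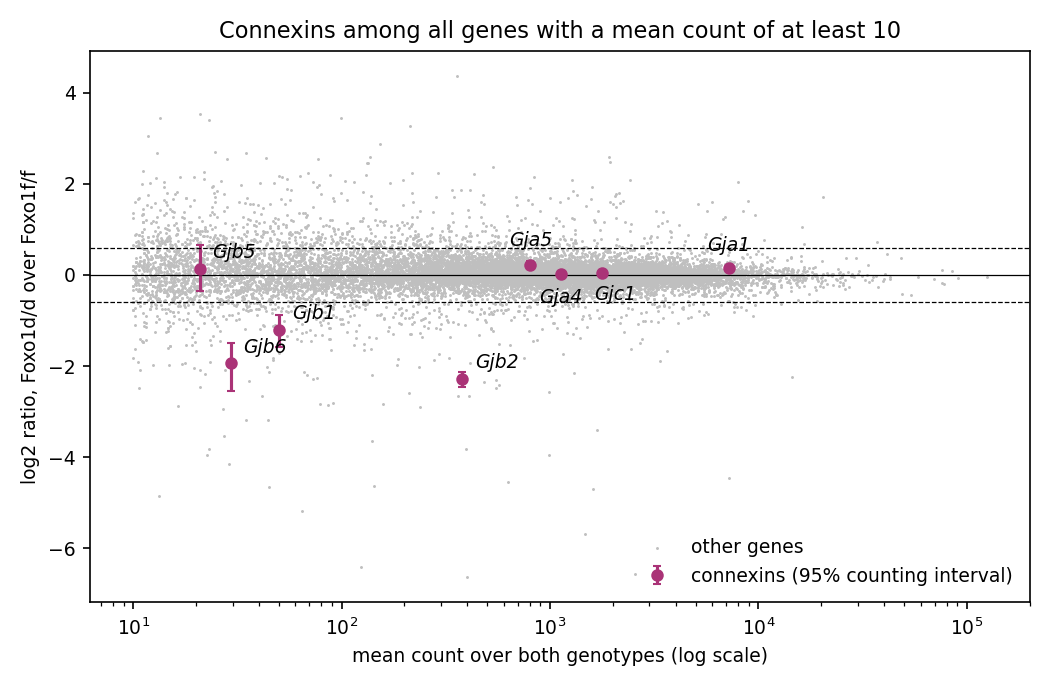
Log2 ratio between the genotypes (vertical axis, *Foxo1d/d* over controls) against the mean count over both (horizontal log axis) for the 15696 genes averaging at least 10 counts (grey) and the 8 connexins (purple, bars are 95% counting intervals), with dashed lines at 1.5-fold. *Gjb2*, *Gjb6* and *Gjb1* lie under the lower dashed line, and the other 5 connexins lie close to 0.

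*Gjb2* encodes Cx26, a connexin of secretory and absorptive epithelia and of the supporting cells of the cochlea, where its loss is a common cause of inherited deafness. The gene lies on the minus strand at chr14:57098602-57104702. It averaged 625.0 counts per library in the controls and 133.3 in *Foxo1d/d* uteri. The transcript was 4.89-fold lower, with a log2 ratio of −2.28 (interval −2.45 to −2.13), and 41 of the 15696 genes had a lower ratio. Per length, it stood at 9.94 CPM per kilobase (interval 9.50 to 10.4) in the controls and at 2.03 (1.84 to 2.24) in *Foxo1d/d* uteri. Of the 8 connexins it had the most negative log2 ratio, although its interval overlapped that of *Gjb6*. Among the beta members it had the most counts in each genotype.

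*Gjb6* encodes Cx30, which in the cochlea is found in the same gap junctions as Cx26 and is also known from epidermis and astrocytes. The gene is the next one to *Gjb2* (chr14:57123301-57133611), on the same strand, with 18.6 kb between them. Its mean count was 46.67 in *Foxo1f/f* uteri and 12.00 in *Foxo1d/d* uteri, which is 4.06-fold lower. The log2 ratio was −1.94 (interval −2.55 to −1.50), and this interval overlapped that of *Gjb2*, so that the differences of both neighbours could not be ranked at this depth. The level per length was low in each genotype, 0.849 CPM per kilobase (interval 0.714 to 1.00) against 0.209 (0.146 to 0.290). The longest exact run shared by the *Gjb2* and *Gjb6* transcripts was 20 bases. Over all 190 pairs of the 20 connexin transcripts it was 42 bases, so that no pair shared a run as long as a read of 90 bases.

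Because *Gjb2* and *Gjb6* sit side by side and were lower together, the 250 bases upstream of each RefSeq start are printed 5′ to 3′ on the minus strand, *Gjb2* from chr14:57104703-57104952 and *Gjb6* from chr14:57133612-57133861. Capitals mark GGGCGG on either strand (CCGCCC on the other), the core of the GC box bound by SP family factors.
Gjb2: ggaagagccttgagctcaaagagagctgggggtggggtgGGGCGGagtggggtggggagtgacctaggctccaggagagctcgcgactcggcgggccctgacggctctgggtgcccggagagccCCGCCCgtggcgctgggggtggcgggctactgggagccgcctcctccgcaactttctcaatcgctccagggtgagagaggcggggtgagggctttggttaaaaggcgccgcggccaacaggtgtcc
Gjb6: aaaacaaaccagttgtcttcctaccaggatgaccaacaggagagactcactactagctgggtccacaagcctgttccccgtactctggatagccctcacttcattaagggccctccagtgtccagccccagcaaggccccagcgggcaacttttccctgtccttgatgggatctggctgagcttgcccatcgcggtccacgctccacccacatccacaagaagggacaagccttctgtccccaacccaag
The *Gjb2* stretch held GGGCGG at 2 places, starting 211 bases before the start on the printed strand and spanning bases 126 to 121 before it on the other, and the *Gjb6* stretch held none. Windows of 300 bases, 250 before and 50 after each start, were searched on both strands for 7 of the 8 connexins, since *Gjc1* had no entry. GGGCGG was in 35.7% of the 32851 windows of all genes searched, and among the connexins also in those of *Gja4*, *Gja5* and 1 of the 4 *Gjb1* starts. GTAAACA, a core bound by forkhead proteins, was in 3.65% of all windows and in none of the connexin windows. TGTTCT, the half-site of the element shared by progesterone, glucocorticoid and androgen receptors, was in 19.0% of all windows and, among the connexins, at 2 of the *Gjb1* starts. These letters describe the windows only, and binding was not measured in these libraries.

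**Figure D2:**
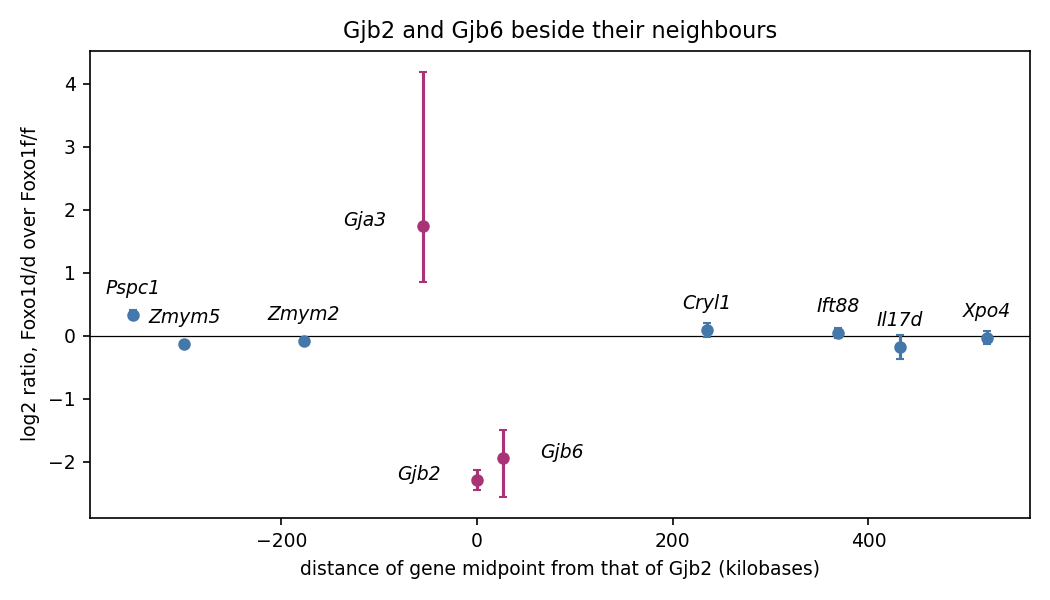
Log2 ratio between the genotypes (vertical axis, *Foxo1d/d* over controls, bars are 95% counting intervals) against the distance of each gene's midpoint from that of *Gjb2* in kilobases (horizontal axis), for connexins (purple) and the other genes with counts in the region (blue). *Gjb2* and *Gjb6* are near −2, *Gja3* is above 0 on few counts, and the other neighbours lie between −0.17 and 0.34.

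The genes around this pair did not share its difference. *Cryl1*, the next gene beyond *Gjb6*, averaged 399.0 counts in the controls and 444.0 in *Foxo1d/d* uteri, at a log2 ratio of 0.09 (interval −0.02 to 0.21). *Zmym2*, on the *Gjb2* side, had mean counts of 3029 and 2995, at a log2 ratio of −0.08. *Gja3*, which encodes the lens fibre connexin Cx46 and lies 40.6 kb from *Gjb2*, summed to 3 counts over the *Foxo1f/f* libraries and 18 over the *Foxo1d/d* libraries (log2 ratio 1.75, interval 0.85 to 4.19). *Cryl1*, *Zmym2* and *Gja3* were chosen after their values were seen. So 2 of the 3 connexin genes in the cluster had fewer counts in *Foxo1d/d* uteri and the remaining gene, near the limit of detection, had more.

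*Gjb1* encodes Cx32, the main gap junction protein of hepatocytes and a component of glandular epithelia and myelinating Schwann cells. It lies on the X chromosome (chrX:101376376-101385629). Its mean count was 69.67 in *Foxo1f/f* uteri and 31.00 in *Foxo1d/d* uteri, 2.34-fold lower. The log2 ratio was −1.20 (interval −1.58 to −0.88), a smaller difference than that of *Gjb2*, whose interval did not overlap it. Per length its level was 1.68 CPM per kilobase (interval 1.46 to 1.93) in the controls and 0.718 (0.579 to 0.879) in *Foxo1d/d* uteri.

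*Gjb5*, the remaining beta member, encodes Cx31.1, a connexin of stratified epithelia and of the trophoblast lineage. The gene is at chr4:127354809-127358164 on the same chromosome as *Gja4*. With mean counts of 19.33 and 22.33 its log2 ratio was 0.14 (interval −0.36 to 0.65), so that no difference was detectable at this depth, and the interval also reaches past 1.5-fold higher. It was the rarest of the 8 connexins in *Foxo1f/f* uteri, at 0.430 CPM per kilobase (interval 0.327 to 0.556), and stood at 0.476 (0.369 to 0.605) in *Foxo1d/d* uteri.

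The 3 lower connexins were set beside epithelial markers, although the cells from which their counts came were not identified in bulk uterine RNA. The 12 simple epithelium markers were all counted, and their summed level was 893 CPM in *Foxo1f/f* uteri and 1073 in *Foxo1d/d* uteri. Of these, 2 were higher (*Krt19*, log2 ratio 1.22, and *Elf3*, 0.86), 1 was lower and 9 lay within 1.5-fold, with a median of 0.29. The most abundant was *Cdh1*, E-cadherin, with a log2 ratio of 0.11. For each 1000 counts of these markers, *Gjb2* had 26.8 counts in *Foxo1f/f* uteri and 4.56 in *Foxo1d/d* uteri (log2 ratio −2.55). *Gjb6* had 2.00 and 0.410 per 1000, and *Gjb1* had 2.99 and 1.06. This comparison with the marker counts was chosen after seeing the data. The part of simple epithelium in the lower counts of the 3 beta connexins was not tested.

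Gland markers, in contrast, were lower in sum. The 7 genes totalled 898 CPM in *Foxo1f/f* uteri and 132 in *Foxo1d/d* uteri, with none at 0 and a median log2 ratio of −1.31. The protease genes *Prss28* (−6.56) and *Prss29* (−4.46), of which *Prss29* was the most abundant marker, the inhibitor gene *Spink1* (−4.70) and *Ttr* (−1.31) were the 4 lower ones. *Lif*, the gland cytokine required for implantation in mice, and *Cxcl15* were higher (0.99 and 0.96), and *Foxa2*, the transcription factor that defines the glands, averaged 279.7 counts in the controls and 299.7 in *Foxo1d/d* uteri, at a log2 ratio of 0.04 (interval −0.10 to 0.17). The part of the gland genes in the lower counts of *Gjb2*, *Gjb6* and *Gjb1* was not tested. Of the 10 stratified epithelium markers, 6 reached a mean count of 10 and none was at 0 in both genotypes. *Krt15* (3.44), *Krt5* (2.58) and *Krt14* (2.01) were higher, *Dsg3* was lower (−1.22), and the most abundant, *Sfn*, was at 0.25. The summed level of the list went from 14.1 to 29.6 CPM, while *Gjb5* and *Gjb6*, which are both known from stratified epithelia, had log2 ratios of 0.14 and −1.94. The part of stratified epithelium in the connexin values was not tested either.

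**Figure D3:**
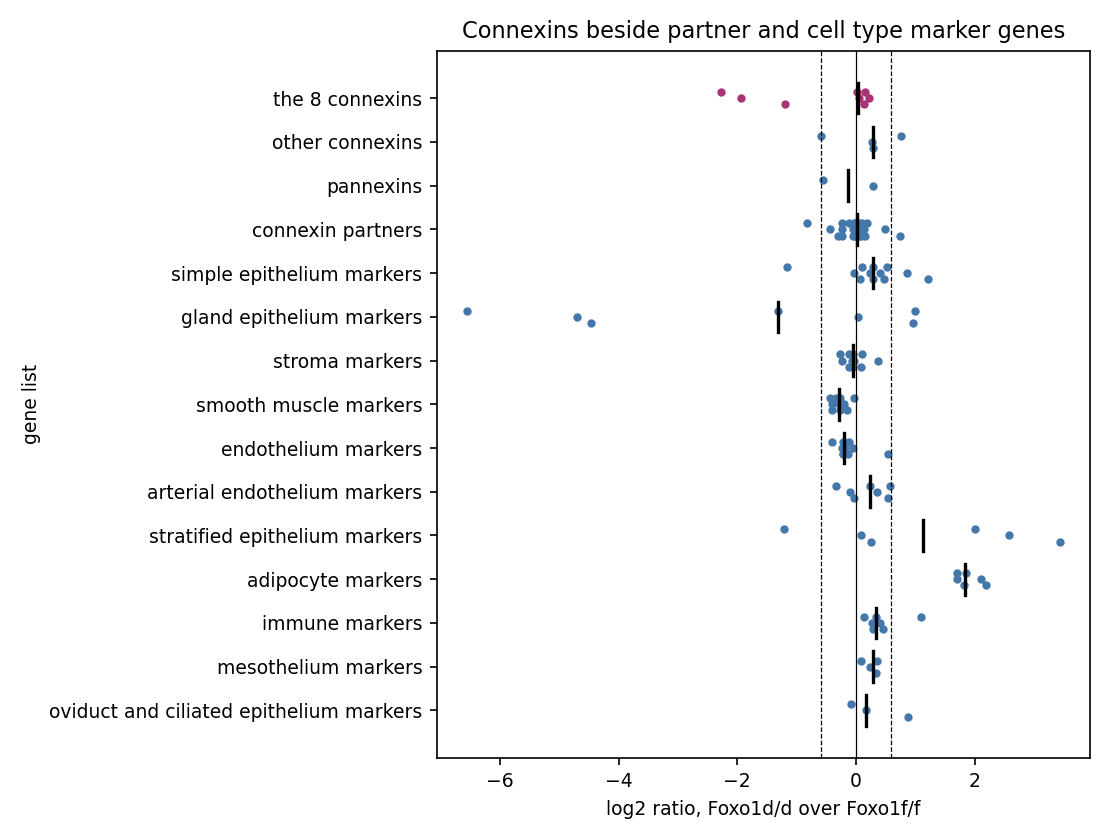
Log2 ratio between the genotypes (horizontal axis, *Foxo1d/d* over controls) of each gene averaging at least 10 counts, by gene list (rows), with the median of each list as a black bar and dashed lines at 1.5-fold. The 8 connexins (purple) split into 3 lower genes and 5 near 0, and the simple epithelium markers have a median of 0.29.

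*Gja1* encodes Cx43, the main connexin of decidualizing stroma and of the myometrium. The gene (chr10:56377300-56390419) had the most counts of all connexins, averaging 6661 per control library and 7781 per *Foxo1d/d* library. The transcript was 1.12-fold higher, with a log2 ratio of 0.16 (interval 0.14 to 0.19), and 3967 of the 15696 genes had a higher ratio. Although counting error alone does not span this difference, it is small beside 1.5-fold, and it was not compared with the spread between libraries here. Its level per length was 83.0 CPM per kilobase (interval 81.9 to 84.2) and 93.0 (91.8 to 94.2).

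*Gjc1* encodes Cx45, a connexin of smooth muscle and of the cardiac conduction system. The gene (chr11:102799477-102819686) had mean counts of 1715 and 1849, and its log2 ratio was 0.05 (interval −0.01 to 0.10). Its level per length, 28.4 CPM per kilobase (interval 27.6 to 29.2) in *Foxo1f/f* uteri and 29.3 (28.5 to 30.1) in *Foxo1d/d* uteri, was thus the same within counting error. The 11 stroma markers, led by *Col3a1*, summed to 15165 and 15105 CPM, with a median log2 ratio of −0.05, and all 11 lay within 1.5-fold. The 10 smooth muscle markers, led by *Myh11* (−0.43), summed to 8573 and 7123 CPM, with a median of −0.28, and again all lay within 1.5-fold. *Gja1* and *Gjc1* were hence slightly above the median of the tissue markers they are known to accompany, and the part of tissue makeup in this was not tested.

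*Gja4* and *Gja5* encode Cx37 and Cx40, which couple endothelial cells, Cx40 mainly in arteries. *Gja4* (chr4:127311420-127314039) averaged 1093 counts in the controls and 1159 in *Foxo1d/d* uteri, at a log2 ratio of 0.02 (interval −0.05 to 0.09). Its level per length was 24.8 CPM per kilobase (interval 24.0 to 25.7) in *Foxo1f/f* uteri and 25.2 (24.4 to 26.1) in *Foxo1d/d* uteri. *Gja5* (chr3:97032402-97053634) had mean counts of 726.7 and 882.7, 1.16-fold higher, with a log2 ratio of 0.22 (interval 0.14 to 0.30). This was the highest value of the 8 connexins, but the interval overlapped those of *Gja1* and *Gjb5*, so that these ratios could not be ranked. The level per length of *Gja5* was 8.95 CPM per kilobase (interval 8.57 to 9.33) in *Foxo1f/f* uteri and 10.4 (10 to 10.8) in *Foxo1d/d* uteri. The 12 endothelium markers, led by *Pecam1* (−0.22), summed to 2359 and 2113 CPM with a median log2 ratio of −0.21. The 7 arterial markers, led by *Nrp1* (0.35), summed to 448 and 580 with a median of 0.23. *Sox17* is in both lists, no gene of either lay past 1.5-fold, and their part in the *Gja5* ratio was not tested.

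**Figure D4:**
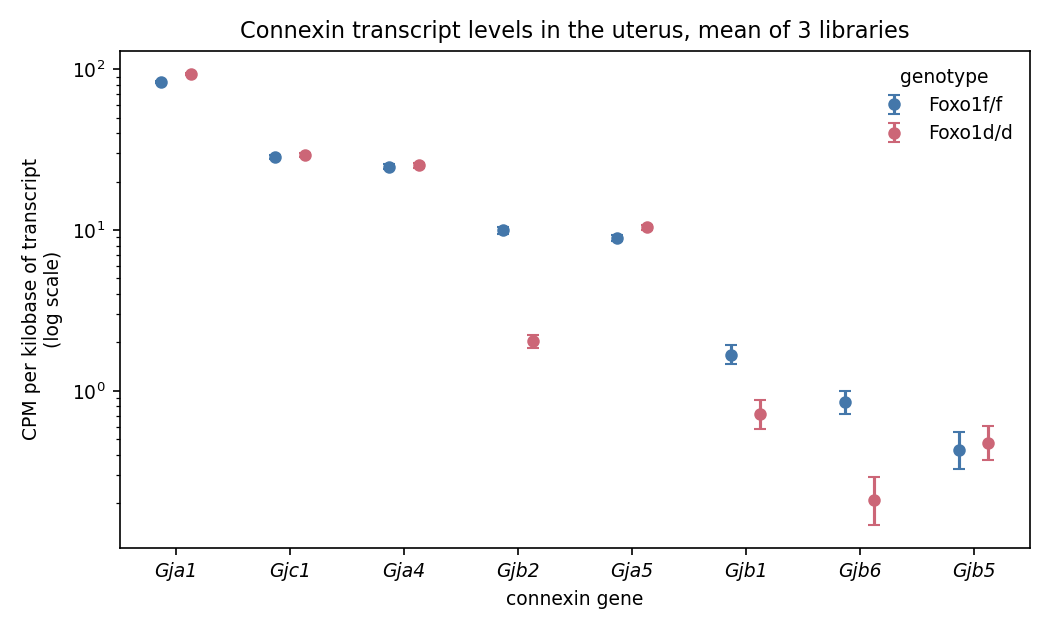
Level of the 8 connexins in *Foxo1f/f* (blue) and *Foxo1d/d* (red) uteri, in CPM per kilobase of transcript on a log axis, with 95% Poisson intervals that cover counting error only. *Gja1* is highest in both genotypes, and *Gjb2* lies at 9.94 in the controls and 2.03 in *Foxo1d/d* uteri.

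Per length, *Gja1* was the most abundant connexin transcript of the uterus, followed by *Gjc1* and *Gja4*, in each genotype. In *Foxo1f/f* uteri the order went on with *Gjb2*, *Gja5*, *Gjb1*, *Gjb6* and *Gjb5*, with intervals that did not overlap between any neighbours. In *Foxo1d/d* uteri it went on with *Gja5*, *Gjb2*, *Gjb1*, *Gjb5* and *Gjb6*, so that *Gjb2* and *Gja5* changed places, as did *Gjb6* and *Gjb5*. Here the intervals of *Gjb1* and *Gjb5* overlapped, and their order is not resolved. Of the summed level of all 20 connexins, *Gja1* made up 50.9% in *Foxo1f/f* uteri and 55.3% in *Foxo1d/d* uteri. The share of *Gjb2* was 6.09% in the controls and 1.21% in *Foxo1d/d* uteri. The 4 beta members together went from 12.9 to 3.44 CPM per kilobase, while the 3 alpha members and the gamma member *Gjc1* together went from 145 to 158. The sum over all 20 connexins was 163 in the controls and 168 in *Foxo1d/d* uteri.

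Of the 12 other connexin genes, 4 reached a mean count of 10, 4 were counted below it and 4 (*Gja10*, *Gjd2*, *Gjd4* and *Gje1*) had 0 counts in both genotypes. For these, a limit of 3 counts summed over the 3 libraries of a genotype was taken (one-sided, counting error only). *Gjd3*, encoding Cx30.2, was the one gene called higher, with mean counts of 9 and 16.67, at a log2 ratio of 0.76 (interval 0.16 to 1.5). None of these 12 genes was called lower.

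Pannexins form related membrane channels that are not built into gap junctions. *Panx1* had mean counts of 372.7 and 471.3, with a log2 ratio of 0.28 (interval 0.16 to 0.39). *Panx2* had 31.33 and 22.00, with a log2 ratio of −0.55 (interval −1.02 to −0.12), and *Panx3* had 0 counts in both genotypes. Proteins that bind, phosphorylate, traffic or degrade connexins were examined as a list of 30 genes, all averaging at least 10 counts. Of these, 28 lay within 1.5-fold, 1 was higher and 1 was lower, close to the shares of 5.43% and 3.51% over all genes compared, with a median log2 ratio of 0.02, and the most abundant was the ubiquitin ligase gene *Nedd4* (−0.05). The higher gene was *Tjp3*, a tight junction scaffold, with mean counts of 393.3 and 686.7, at a log2 ratio of 0.74 (interval 0.64 to 0.85). The lower gene was *Ccn3*, a secreted protein that binds the Cx43 tail, with mean counts of 533.0 and 314.7, at a log2 ratio of −0.82 (interval −0.94 to −0.71). *Tjp1*, encoding the scaffold ZO-1 that holds Cx43 at the border of gap junction plaques, averaged 9057 counts in the controls and 6980 in *Foxo1d/d* uteri, at a log2 ratio of −0.44 (interval −0.46 to −0.41). *Ezr*, encoding the cytoskeletal linker ezrin, averaged 4449 counts in the controls and 6514 in *Foxo1d/d* uteri, at a log2 ratio of 0.49 (interval 0.46 to 0.52).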

How the data were processed

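Poly(A) RNA-seq libraries were made with the TruSeq protocol from uteri of 3 pools of 2 *Foxo1f/f* mice and 3 pools of 2 *Foxo1d/d* mice at PPD 4.5. The study's RNA isolation, written for operated mice, used horns without the cervix, and whether this held for these libraries is not given in the sources used here. According to the study's methods, the authors trimmed 11 bases from the 5′ ends, mapped paired reads of 90 bases with STAR, removed duplicates with Picard and counted reads per RefSeq gene with HTSeq. Versions are not given in the sources used here. The methods name mm10 and the submitters' processing notes mm9, so counts are used by gene symbol and every position printed is from RefSeq on GRCm38.p6. Strand use in counting is not given in the sources used here. The deposited table gives raw counts averaged over the libraries of a genotype. Its other columns, from the authors' comparison (fold change, mean log2 abundance, p-value and FDR by edgeR), were not used. A planned edgeR test on single libraries was not run, because the table analysed holds 0 single-library columns.

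Mean counts multiplied by 3 gave the summed counts. Log2 ratios used the total count and a pseudocount of 1. Levels were divided by the longest GENCODE M21 transcript with a RefSeq accession. Genes averaging at least 10 counts were compared, and those past 1.5-fold were called. The calculation was tested on data simulated with counting error only, for genes averaging at least 50 counts. This says nothing on the spread between libraries or on rarer genes. Python 3.11.15, pandas 2.3.3, numpy 2.4.6, SciPy 1.17.1 and matplotlib 3.10.9 were used. The members and the gene lists were chosen with earlier results of these data known. The naming rule covered the 8 connexins, *Foxo1*, other connexins and pannexins with a mean count of at least 10, and, per further list, the most abundant gene and the 3 highest and 3 lowest ratios. Some genes under this rule are not reported here. *Spink1*, *Cxcl15*, *Ccn3* and *Adgre1* were matched by older symbols. Alternatives were other pseudocounts, scalings, thresholds, count minimums and coding length. Genes of like pattern were not sought.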

Additional observations from a re-analysis of the deposited data

How the results depend on the processing

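With pseudocounts of 0.1 and 5 and 3 other scalings, the log2 ratios of all 8 connexins and *Foxo1* kept their sign and stayed within their counting intervals, and the median of the 8 ranged from 0.013 to 0.035. *Gjb2* ranged from −2.30 to −2.25, *Gjb6* from −2.01 to −1.67 and *Gjb1* from −1.23 to −1.11. Relative to simple epithelium markers, an alternative chosen after seeing the data, *Gjb2* was at −2.55, outside its interval. The 3 lower connexins were 3 at each threshold and 2 with a mean count of at least 50, which leaves out *Gjb6*. The 551 lower and 853 higher genes became 1412 and 1968 at the lower fold threshold, 220 and 313 at 2-fold, 919 and 1346 with a mean count of at least 1, and 357 and 528 with at least 50. With coding length, the share of *Gja1* was 56.14% in the controls and 62.19% in *Foxo1d/d* uteri, and the order of the 8 levels was as with transcript length. No paired analysis was possible because the table analysed carries no values of single libraries, and leaving out each replicate was not run for the same reason. Depth limits *Gjb5* and *Gjb6* most, and the spread between libraries was not assessed here for any gene.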

Other observations

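All 6 adipocyte markers were higher in *Foxo1d/d* uteri, with a median log2 ratio of 1.84, a summed level of 16.2 and 58.5 CPM and *Cfd* as the most abundant. *Cidec*, a lipid droplet protein gene, had mean counts of 30.00 and 146.7. Of 7 immune markers, led by *Ptprc*, 1 was higher, the T cell gene *Cd3e* with mean counts of 52.00 and 116.3, and the list summed to 214 and 269 CPM. The 4 mesothelium markers, led by *Upk3b*, summed to 51.2 and 59.4 CPM, with 0 past 1.5-fold. Of the 3 oviduct and ciliated epithelium markers, led by *Ovgp1*, *Foxj1* was higher, with mean counts of 12.67 and 25.33, and the list summed to 166 and 177. No marker of these lists was at 0 in both genotypes. Their part in the connexin values was not tested.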
